A study of Mus musculus with 9 samples.

Results

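The genes described are those of NMDA and kainate receptor subunits, ionotropic glutamate receptors of neurons. They were taken by symbol from the count tables: Grin1, Grin2a, Grin2b, Grin2d and Grin3a for NMDA receptors and Grik1, Grik2, Grik3 and Grik5 for kainate receptors, 9 of the 23319 gene symbols counted. RNA was sequenced from green fluorescent cortical interneurons of mice at postnatal day 5, in 3 libraries per line, each from 150 cells picked by hand after slicing and enzymatic dissociation of prefrontal and cingulate cortex. Nkx2.1-CreER;Ai47 mice, given tamoxifen at embryonic day 17, were the source of the Nkx2.1 libraries. This induction is known for marking chandelier cells, which contact the initial segment of pyramidal cell axons. SOM-Cre;Ai47 mice gave the SOM libraries and VIP-Cre;Ai47 mice the VIP libraries, with no treatment in the labels. All mice carried the Ai47 fluorescent reporter, so SOM and VIP samples hold cells in which Cre was active at any earlier time and Nkx2.1 samples those in which it was active around the tamoxifen dose, and the labels do not say how many animals gave a sample. Only the Nkx2.1 mice had tamoxifen and an inducible Cre, so line, induction and tamoxifen cannot be told apart in a comparison with the Nkx2.1 libraries.

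NMDA receptors are tetramers that open when glutamate and a co-agonist, glycine or D-serine, are bound and the membrane is depolarized enough to relieve a block by magnesium. Each holds the obligatory subunit encoded by Grin1 together with GluN2 subunits (Grin2a to Grin2d), which bind glutamate, or GluN3 subunits (Grin3a, Grin3b), which bind glycine and lower calcium permeability. Kainate receptors are built from the subunits of Grik1, Grik2 and Grik3, which form channels on their own, and those of Grik4 and Grik5, which reach the surface only with one of them. In cortical interneurons both receptor classes take part in excitation and in maturation during the first postnatal weeks.

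Levels are given as CPM, read counts scaled to the reads in genes of each library after TMM normalization, and a comparison was called at an adjusted p under 0.05 in edgeR's quasi-likelihood test over the 10728 genes tested, which included all 9 subunit genes. Libraries held 6484488 to 12465997 reads in genes. The limit that a count of 0 allows, set at 3 reads, was therefore 0.246 to 0.444 CPM. These limits and the intervals below cover counting error only. Sst averaged 17.6 ± 18.1 CPM in Nkx2.1, 1734 ± 379 CPM in SOM and 0.0409 ± 0.0708 CPM in VIP libraries, and Vip averaged 1.17 ± 2.03, 0.419 ± 0.726 and 634 ± 201 CPM in this order of lines (mean ± SD, n = 3 each). Nkx2-1 had 23 reads in all in the Nkx2.1 libraries, 1 in the SOM and 0 in the VIP libraries. Gad1, which encodes a GABA-synthesizing enzyme, stood at 1253 ± 541, 1180.4 ± 163 and 1467 ± 493 CPM. The summed level of 8 astrocyte markers was 169 to 2334 CPM in Nkx2.1 libraries, with the highest value in replicate 1. It was 37.4 to 123 CPM in SOM libraries (Gfap and Gja1 at 0 in all 3) and 232 to 377 CPM in VIP libraries (Sox9 at 0 in all 3). No marker was at 0 in all 3 Nkx2.1 libraries, but the lowest value there was 0 CPM for Aqp4, Gfap, Aldh1l1, Aldoc, Gja1 and Sox9. Some sums came mostly from a single gene. Slc1a3 had 1649 CPM in Nkx2.1 replicate 1, and Slc1a2 had 372, 215 and 229 CPM in VIP replicates 1 to 3. Aqp4, Gfap and Aldh1l1 had 2, 3 and 2 reads in all in VIP libraries. For 8 excitatory neuron markers the sum was 0 to 116 CPM in Nkx2.1 libraries, 1.49 to 9.76 CPM in SOM libraries and 3.28 to 156 CPM in VIP libraries, and Slc17a7, the vesicular glutamate transporter of cortical pyramidal cells, had 0 reads in the Nkx2.1 libraries. Another 8 markers, of the oligodendrocyte lineage, summed to 259 to 302 CPM in Nkx2.1 libraries, up to 264 CPM in SOM libraries and 1.72 to 111 CPM in VIP libraries, with Olig2 at 0 reads in Nkx2.1 and VIP libraries. Within this list Pdgfra averaged 129 CPM in Nkx2.1, 14.6 CPM in SOM and 1.22 CPM in VIP libraries, and Cspg4 83.9, 46.9 and 0.0409 CPM. Markers of microglia summed to at most 17.8 CPM in any library (nothing is read from Cx3cr1, at 0 reads like all 20 of its nearest same-strand genes), those of endothelial and mural cells to at most 17.6 CPM, and those of GABAergic neurons to between 2256 and 3834 CPM. In the GABAergic list Slc32a1 averaged 4.53 CPM in Nkx2.1, 44.8 CPM in SOM and 65.7 CPM in VIP libraries. Dlx6 averaged 0.286, 5.32 and 29.3 CPM. Dlx1, Dlx2 and Dlx5 were on average lowest in SOM libraries, and Gad2 was highest there. In Nkx2.1 replicate 2, 270 of the 3167 genes with at least 40 CPM in both other Nkx2.1 libraries had 0 reads (8.53%). That share was 1.40% and 3.78% in Nkx2.1 replicates 1 and 3, 0.0809% to 0.519% in SOM libraries and 0.385% to 2.66% in VIP libraries.

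In these data Grin1, Grin2b, Grik2 and Grik5 had reads in every library of the 3 lines, Grik5 as few as 4. Grin3a and Grik3 were most abundant in SOM cells and Grin1 in VIP cells. Grin2a was at the detection limit in VIP cells and Grin2d was at the detection limit in Nkx2.1 cells. In bulk samples fewer cells with a transcript and less of it per cell cannot be told apart. None of these differences was called by edgeR. For Nkx2.1 against SOM 0 of the 9 genes passed, beside 0.0932% of all genes tested, and 2 had an unadjusted p under 0.05 (Grin2d and Grin3a), beside 11.3% of all genes. For Nkx2.1 against VIP 0 of 9 passed, beside 0.308% of all genes, and 2 had an unadjusted p under 0.05 (Grin2a and Grin2d), beside 15.2%. For SOM against VIP 0 of 9 passed, beside 0.0746% of all genes, and 3 had an unadjusted p under 0.05 (Grin2a, Grin3a and Grik3), beside 6.99%. The DESeq2 Wald test, which called more genes than edgeR on these counts, called 2 of 9 lower (Grin2d and Grin3a) and 0 higher in Nkx2.1 than in SOM, beside 7.17% and 1.93% of all genes. In Nkx2.1 against VIP it called 1 higher (Grin2a) and 1 lower (Grin2d), beside 4.37% and 8.62%. In SOM against VIP it called 2 higher (Grin2a and Grik3) and 0 lower, beside 3.11% and 1.63%. Here and below, the DESeq2 shares of all genes are of those with a DESeq2 adjusted p. These were 10386 genes in Nkx2.1 against SOM and 10606 in each comparison with VIP.

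Every library of one line lay outside the range of the other for 5 of the 9 genes between Nkx2.1 and SOM (Grin2d, Grin3a, Grik1, Grik3 and Grik5), all lower in Nkx2.1. Of all genes 19.9% did not overlap there, 14.0% being lower in Nkx2.1. Between Nkx2.1 and VIP it was 5 of 9, Grin2a higher and Grin1, Grin2d, Grik1 and Grik5 lower, beside 20.1% of all genes. Between SOM and VIP it was 6 of 9, Grin2a, Grin3a, Grik1, Grik2 and Grik3 higher and Grin1 lower, beside 19.9% of all genes. The median fitted log2 fold change of the 9 genes was -2.22, -1.19 and 1.06 in the 3 comparisons, against -0.0075, 0.0028 and -0.0037 for all genes tested. The comparisons share libraries and are not independent of each other.

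**Figure D1:**
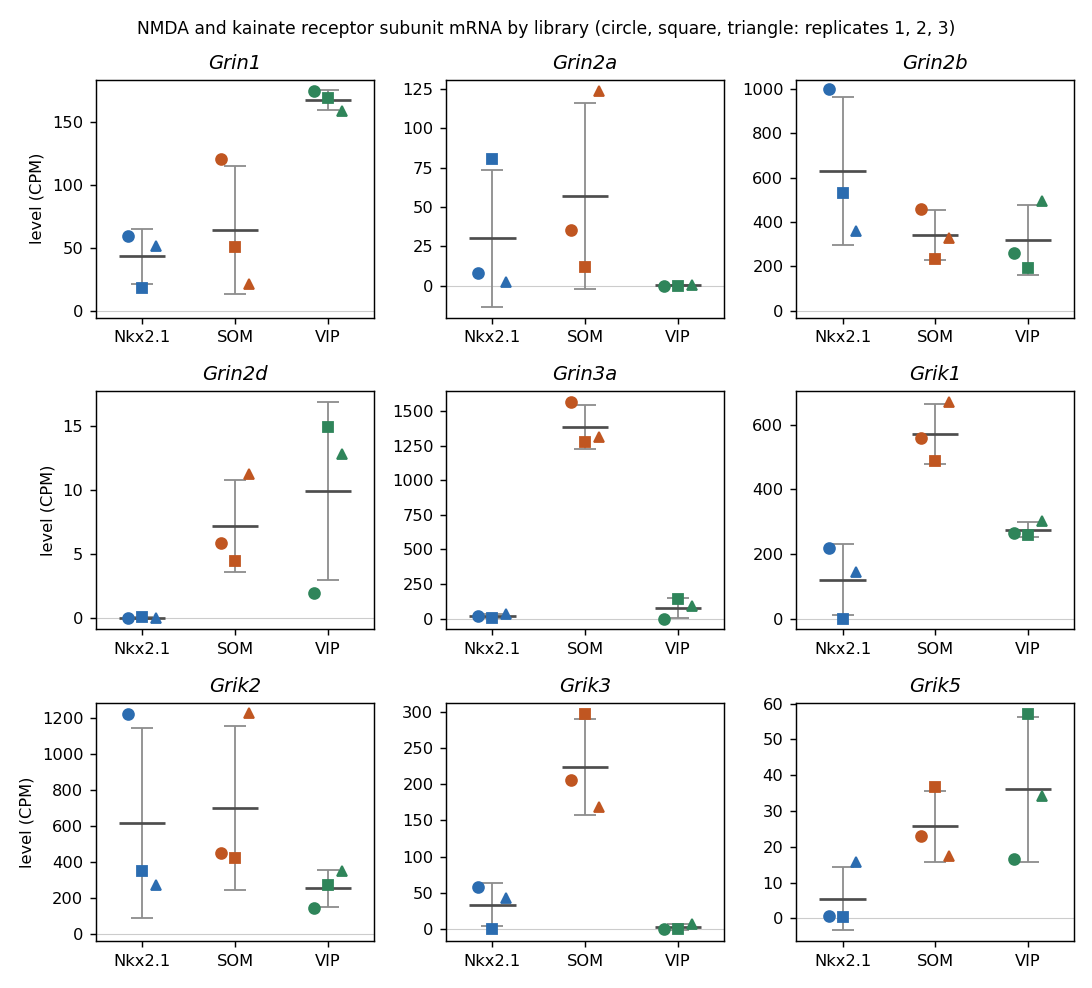
Level of each subunit gene in CPM (vertical axis, linear) in the 3 Nkx2.1, 3 SOM and 3 VIP libraries; symbols are single libraries, the thick line is the mean and the thin bar ± 1 SD. The 3 SOM libraries sit at 1279 to 1565 CPM for Grin3a, above all libraries of the other lines, and Grin1 sits at 159 to 175 CPM in the 3 VIP libraries.

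Grin1 (chromosome 2, 25291181 to 25319187, minus strand; coordinates here are of the build GRCm38 from the GENCODE M21 annotation), the subunit without which no NMDA receptor forms, had 59.9, 18.3 and 51.7 CPM in Nkx2.1 replicates 1 to 3, 121, 51.1 and 21.7 CPM in the SOM replicates and 175, 169 and 159 CPM in the VIP replicates. The VIP libraries were close together and above all others, while Nkx2.1 and SOM libraries overlapped. The fitted log2 fold change was -1.95 ± 0.92 (± SE here and below) for Nkx2.1 against VIP (edgeR adjusted p = 0.353), -1.37 ± 0.91 for SOM against VIP (edgeR adjusted p = 0.9996) and -0.58 ± 0.89 for Nkx2.1 against SOM (edgeR adjusted p = 0.959). The last turned direction without SOM replicate 1 (0.26). The antisense transcript Grin1os overlaps exons of Grin1, and whether the authors' counting used strand is not given in the sources used here, so reads of the pair cannot be separated.

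The GluN2 subunits set the kinetics of the receptor, and during cortical development the subunit of Grin2b comes first and that of Grin2a later. Grin2b (chromosome 6, 135713233 to 136173511, minus strand) had 999, 533 and 358 CPM in Nkx2.1 libraries, 459, 234 and 330.1 CPM in SOM libraries and 261, 195 and 495 CPM in VIP libraries. The 3 lines overlapped. The mean of Nkx2.1 libraries was 1.85 times that of SOM libraries (log2 0.88 ± 0.52 SE, edgeR adjusted p = 0.598) and 1.99 times that of VIP libraries (log2 0.99 ± 0.52, edgeR adjusted p = 0.414). The highest value was that of Nkx2.1 replicate 1, which also had the highest astrocyte marker sum (2334 CPM), and its part in the result was not tested. Without it the log2 values were 0.41 and 0.53. For SOM against VIP the log2 value was 0.11 ± 0.51 SE (edgeR adjusted p = 0.9996), and it turned direction without SOM replicate 1 (-0.17), VIP replicate 1 (-0.0017) or VIP replicate 2 (-0.14).

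Grin2a (chromosome 16, 9567898 to 9995560, minus strand) had 69, 948 and 24 reads in Nkx2.1 libraries (7.83, 80.2 and 1.99 CPM), 334, 81 and 1081 reads in SOM libraries (up to 124 CPM) and 0, 0 and 3 reads in VIP libraries (0.246 CPM in replicate 3). All Nkx2.1 and SOM libraries lay above all VIP libraries. From reads pooled over libraries the ratio of Nkx2.1 to VIP was 319 (95% counting interval 109 to 1548; log2 8.24 ± 2.52 SE, edgeR adjusted p = 0.201, DESeq2 adjusted p = 0.000126). That of SOM to VIP was 601 (205 to 2917; log2 9.16 ± 2.62 SE, edgeR adjusted p = 0.424, DESeq2 adjusted p = 4.83e-05). Nkx2.1 replicate 2, with the most Grin2a of its line and the most genes missing, had marker sums of 0 CPM for excitatory neurons, 337 CPM for astrocytes and 259 CPM for the oligodendrocyte lineage. In SOM replicate 3, with the most Grin2a of all libraries, these sums were 1.49, 37.4 and 189 CPM. The part of other cells in the Grin2a level was not tested. Nkx2.1 against SOM gave log2 -0.93 ± 1.84 SE (edgeR adjusted p = 0.972), and 0.34 without SOM replicate 3. Against VIP the Nkx2.1 value was 5.62 without Nkx2.1 replicate 2 and 11.15 without VIP replicate 3.

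Grin2d (chromosome 7, 45831883 to 45878378, minus strand), a slowly deactivating subunit known from interneurons, was low throughout. Only 0, 1 and 0 reads came from the Nkx2.1 libraries, against 55, 30 and 98 reads in the SOM libraries (4.44 to 11.2 CPM) and 16, 144 and 156 reads in the VIP libraries (1.96 to 14.9 CPM). Every Nkx2.1 library lay below every SOM and every VIP library, and SOM and VIP overlapped. By pooled reads Nkx2.1 was 240.1-fold lower than SOM (counting interval 42.6 to 9534; log2 -7.42 ± 2.17 SE, edgeR adjusted p = 0.313, DESeq2 adjusted p = 0.000176) and 344-fold lower than VIP (61.3 to 13633; log2 -7.88 ± 2.22 SE, edgeR adjusted p = 0.170, DESeq2 adjusted p = 3.09e-05). The ratios rest on 1 read, in Nkx2.1 replicate 2, and without that library the fitted values were -9.09 and -9.55. The number of genes with at least 1 read was 8180 to 10576 in Nkx2.1 libraries, 10923 to 11490 in SOM libraries and 9672 to 10927 in VIP libraries, and its part in a gene of this level was not tested. SOM against VIP had log2 -0.46 ± 1.65 SE (edgeR adjusted p = 0.9996).

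Per kilobase of exon in the full annotation, Grin2b made up most of the GluN2 transcripts in each library. Its share among Grin2a, Grin2b, Grin2c and Grin2d was 98.9%, 82.7% and 99.2% for the Nkx2.1 line, 86.6%, 87.6% and 60.8% for the SOM line and 97.3%, 77.9% and 91.2% for the VIP line, replicates 1 to 3 each (93.6 ± 9.45%, 78.3 ± 15.2% and 88.8 ± 9.91%, mean ± SD, n = 3). The rest was nearly all Grin2a in Nkx2.1 libraries (up to 17.2%), both genes in SOM libraries (Grin2a 6.21% to 31.5%, Grin2d 4.11% to 7.70%) and nearly all Grin2d in VIP libraries (2.73% to 22.1%). The 95% Wilson interval of the underlying shares of reads was at most 2.79 percentage points wide in any library. The shares depend on the exon length assumed, which was 17933 bases for Grin2a in the full annotation and 4395 in transcripts matched to RefSeq. With the lengths matched to RefSeq the Grin2b share was 95.9%, 54.8% and 97.0% for the Nkx2.1 line, 67.6%, 73.3% and 31.2% for the SOM line and 96.8%, 74.8% and 89.5% for the VIP line. In SOM replicate 3 Grin2a then held more than Grin2b, at 64.1%.

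**Figure D2:**
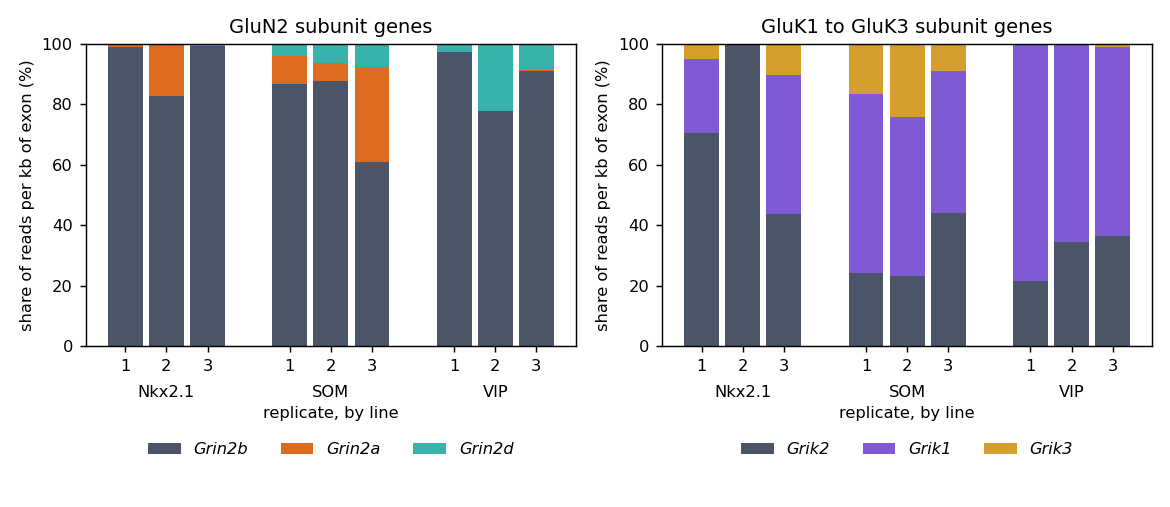
Share of reads per kilobase of exon (vertical axis, percent) among the GluN2 genes (left) and among Grik1, Grik2 and Grik3 (right), 1 bar per library with the replicate number below it and the lines Nkx2.1, SOM and VIP from left to right. Grin2b fills 60.8% to 99.2% of the left bars; Grik1 fills 62.4% to 78.5% in VIP libraries and is absent in Nkx2.1 replicate 2.

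Grin3a (chromosome 4, 49661611 to 49845744, minus strand), the glycine-binding subunit that lowers calcium permeability, had its highest level in SOM cells. There were 19.2, 0.423 and 33.0 CPM in Nkx2.1 libraries, 1565, 1279 and 1312 CPM in SOM libraries and 0, 141 and 89.8 CPM in VIP libraries. The SOM libraries lay far above all others, and Nkx2.1 and VIP libraries overlapped. The SOM mean of 1385 ± 156 CPM stood against 77.1 ± 71.5 CPM in VIP libraries (log2 4.17 ± 1.79 SE, edgeR adjusted p = 0.671, DESeq2 adjusted p = 0.247). The Nkx2.1 mean of 17.6 ± 16.4 CPM was 78.9-fold lower than the SOM mean (log2 -6.30 ± 1.98 SE, edgeR adjusted p = 0.326, DESeq2 adjusted p = 0.00980). Nkx2.1 against VIP gave log2 -2.13 ± 1.64 SE (edgeR adjusted p = 0.639). The fits that left out 1 library gave -7.14 to -5.72 for Nkx2.1 against SOM and 3.60 to 4.96 for SOM against VIP. In VIP replicate 1, where Grin3a had 0 reads (a limit of 0.368 CPM), 100 of the 3761 genes of at least 40 CPM in both other VIP libraries had none, Grin3a among them.

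Among the kainate receptor genes, Grik1 (chromosome 16, 87895900 to 88290265, minus strand), whose subunit is known from interneurons, had 217, 0 and 144 CPM in Nkx2.1 libraries, 559.8, 487 and 670.4 CPM in SOM libraries and 265, 258 and 302 CPM in VIP libraries. The lines were ordered SOM, VIP and Nkx2.1 with no overlap between any pair of them. SOM libraries had 2.08 times the mean of VIP libraries (log2 1.06 ± 1.43 SE, edgeR adjusted p = 0.9996). Nkx2.1 libraries were 4.76-fold lower than SOM libraries (log2 -2.25 ± 1.48 SE, edgeR adjusted p = 0.674) and 2.29-fold lower than VIP libraries (log2 -1.19 ± 1.43 SE, edgeR adjusted p = 0.804). Without Nkx2.1 replicate 2, the library in which 8.53% of the genes described above were at 0 reads, these became -1.66 and -0.61. The part of that library's missing genes was not tested.

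Grik2 (chromosome 10, 49094833 to 49788766, minus strand), a widely expressed channel-forming kainate subunit of the forebrain, had 1222, 352 and 269.6 CPM in Nkx2.1 libraries, 449, 423 and 1225 CPM in SOM libraries and 143, 269 and 348 CPM in VIP libraries. One Nkx2.1 and one SOM library stood at about the same high level, and SOM libraries did not overlap with VIP libraries. The log2 fold change was -0.19 ± 0.65 SE for Nkx2.1 against SOM (edgeR adjusted p = 0.984), 1.28 ± 0.66 for Nkx2.1 against VIP (edgeR adjusted p = 0.408) and 1.46 ± 0.67 for SOM against VIP (edgeR adjusted p = 0.724). Without Nkx2.1 replicate 1, the library with the highest astrocyte marker sum, the first pair became -1.16 and 0.33. Nkx2.1 against SOM turned direction without Nkx2.1 replicate 2 (0.10), Nkx2.1 replicate 3 (0.18) or SOM replicate 3 (0.50). Without SOM replicate 3, SOM against VIP stood at 0.78.

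Grik3 (chromosome 4, 125490700 to 125714173, plus strand), the channel-forming subunit of lowest glutamate affinity, had 58.5, 0 and 42.7 CPM in Nkx2.1 libraries, 206, 297 and 168 CPM in SOM libraries and 0, 0.310 and 6.89 CPM in VIP libraries. SOM libraries lay above all others, and Nkx2.1 replicate 2 lay within the range of the VIP libraries. The SOM mean was 93.3 times the VIP mean (224 ± 66.5 against 2.40 ± 3.89 CPM; log2 6.53 ± 2.45 SE, edgeR adjusted p = 0.571, DESeq2 adjusted p = 0.0397). Nkx2.1 was 6.64-fold lower than SOM (log2 -2.73 ± 2.05 SE, edgeR adjusted p = 0.765) and had log2 3.80 ± 2.16 SE against VIP (edgeR adjusted p = 0.468). Like Grik1, Grik3 was among the genes with 0 reads in Nkx2.1 replicate 2, and the part of that library's missing genes was not tested. Nkx2.1 against SOM was -2.14 without that library and -3.39 without Nkx2.1 replicate 1. Without VIP replicate 3, the VIP library with most Grik3 reads, the values against VIP were 10.34 for SOM and 7.61 for Nkx2.1.

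Grik5 (chromosome 7, 25009849 to 25072346, minus strand), a high-affinity subunit that needs a partner, was low in all lines. It had 5, 4 and 189 reads in Nkx2.1 libraries (0.338 to 15.7 CPM), 22.9, 36.7 and 17.5 CPM in SOM libraries and 16.6, 57.2 and 34.3 CPM in VIP libraries. All Nkx2.1 libraries lay below the others, replicate 3 by a small margin, and neither comparison passed (log2 -2.22 ± 1.76 SE against SOM and -2.70 ± 1.79 SE against VIP, edgeR adjusted p = 0.791 and 0.558). Without that replicate the values were -5.78 and -6.27. SOM against VIP stood at -0.49 ± 1.69 SE (edgeR adjusted p = 0.9996), and at 0.033 without VIP replicate 2.

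The shares of Grik1 and Grik2 among the channel-forming kainate subunits, per kilobase of exon, varied more between libraries of the Nkx2.1 line than within the other lines. Of the sum of Grik1, Grik2 and Grik3, Grik1 held 24.6%, 0% and 46.0% for Nkx2.1 libraries, 59.4%, 52.7% and 47.3% for SOM libraries and 78.5%, 65.4% and 62.4% for VIP libraries. Every VIP library was above every SOM library, and every SOM library above every Nkx2.1 library. As plain shares of reads, SOM and VIP overlapped (46.1% in SOM replicate 1, 45.9% in VIP replicate 3). Grik2 held 70.4% and 43.7% in Nkx2.1 replicates 1 and 3 and the whole sum in replicate 2, 23.2% to 43.9% in SOM libraries and 21.5% to 36.5% in VIP libraries. Grik3 held up to 10.2%, 24.1% and 1.07% in these lines. The 95% Wilson interval of these genes' shares of reads was at most 3.24 percentage points wide. No test was run on these shares.

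**Figure D3:**
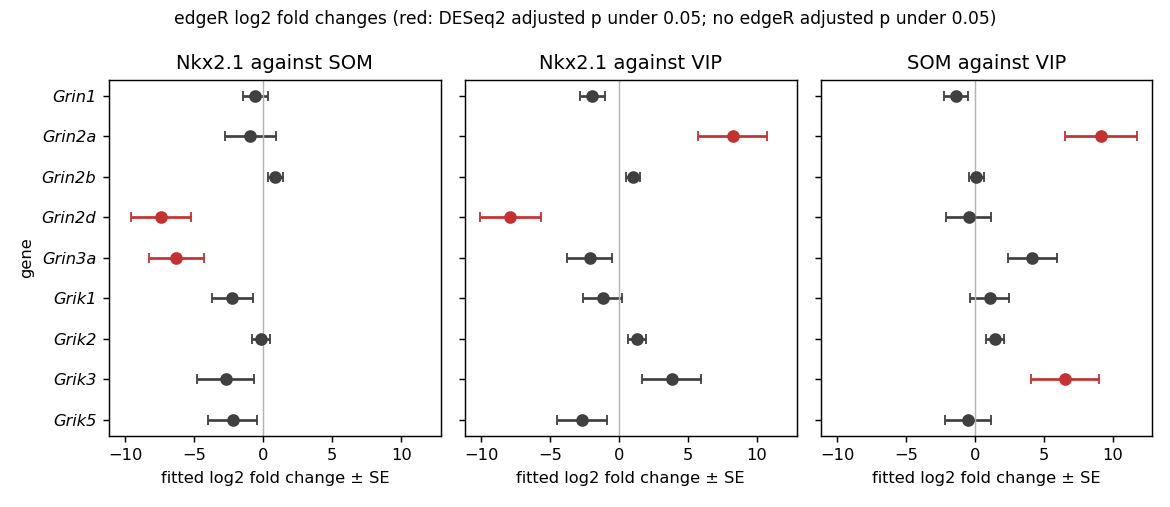
Fitted log2 fold change of each subunit gene (horizontal axis, dots with ± 1 SE bars) for the 3 pairs of lines, from left to right Nkx2.1 with SOM, Nkx2.1 with VIP and SOM with VIP; positive values mean higher in the line named first. Red marks the DESeq2 calls, such as Grin2d at -7.42 and Grin3a at -6.30 in Nkx2.1 against SOM; no gene was called by edgeR.

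Within a line the levels can be ordered per kilobase of exon, with lengths from the full annotation. In Nkx2.1 libraries Grik2 (46.4 CPM per kb), Grin2b (25.4) and Grik1 (17.9) came first and Grin2d (0.00424) last, and only Grin2d was separated from its neighbour in this order by all libraries. In SOM libraries the order was Grin3a (113 CPM per kb), Grik1 (85.2), Grik2 (52.8), Grik3 (24.9) and Grin2b (13.7), followed by Grin1 (6.67), Grik5 (4.97), Grin2a (3.18) and Grin2d (1.08). Grin3a lay above Grik1 in each library and Grik3 above Grin2b, while the other neighbours overlapped. In VIP libraries Grik1 (40.9 CPM per kb) was followed, without overlap, by Grik2 (19.1), then by Grin1 (17.3), Grin2b (12.8), Grik5 (6.97), Grin3a (6.28), Grin2d (1.48), Grik3 (0.267) and Grin2a (0.00457), each overlapping the next. With lengths matched to RefSeq the order changed in part. In SOM libraries Grin3a (185 CPM per kb) again lay above Grik1 (139) in each library, but Grik3 (24.9) then overlapped the gene after it, Grin1 (14.8), and Grin2a passed Grik5. In VIP libraries Grin1 (38.4) came before Grik2 (26.6), and in Nkx2.1 libraries Grik1 (29.3) came before Grin2b (26.1), with overlap in both.

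Of the family members outside this set, Grin2c, a subunit best known from cerebellum, had 0 reads in all 9 libraries. Grik4, a partner-dependent kainate subunit on the minus strand of chromosome 9, also had 0 reads, as did all 20 of the nearest counted protein-coding genes on its strand (10 on each side), so nothing is read from its count. For Grin2c it was 7 of 20. Grin3b, the other GluN3 gene, had 0, 622 and 3 reads in the Nkx2.1 replicates, 6, 7 and 0 reads in the SOM replicates and 141, 69 and 101 reads in the VIP replicates, and no comparison passed (edgeR adjusted p = 0.581 for Nkx2.1 against SOM, 0.946 for Nkx2.1 against VIP and 0.9996 for SOM against VIP). Its exons overlap in part with those of Tmem259 on the other strand, so its reads are uncertain.

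Neto1 and Neto2 encode auxiliary subunits that slow the kinetics of kainate receptors. Neto1 had 109, 0.677 and 44.9 CPM in Nkx2.1 libraries, 618, 594 and 799.6 CPM in SOM libraries and 0, 0.930 and 10.5 CPM in VIP libraries. SOM libraries lay above all others. SOM against VIP gave log2 7.44 ± 2.02 SE (edgeR adjusted p = 0.403, DESeq2 adjusted p = 0.00107), Nkx2.1 against SOM -3.70 ± 1.70 SE (edgeR adjusted p = 0.455) and Nkx2.1 against VIP 3.75 ± 1.71 SE (edgeR adjusted p = 0.334). Neto2 had 289, 3.98 and 421 CPM in Nkx2.1 libraries, 266, 322 and 126 CPM in SOM libraries and 16.7, 33.7 and 17.1 CPM in VIP libraries. Nkx2.1 replicate 2 was again the low library of its line. Neto2 had log2 3.40 ± 1.23 SE for Nkx2.1 against VIP (edgeR adjusted p = 0.242, DESeq2 adjusted p = 0.0467) and also 3.40 ± 1.23 SE for SOM against VIP (edgeR adjusted p = 0.533).

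Over the 9 libraries, Neto1 was the gene whose log2(CPM + 1) values correlated most with those of Grik3 among all genes tested (Pearson r = 0.990), ahead of Pmm2 (0.963). Both Grik3 and Neto1 were highest in the SOM libraries, intermediate in Nkx2.1 replicates 1 and 3 and near 0 in Nkx2.1 replicate 2 and VIP replicates 1 and 2. These points share library and depth and fall by line, so the value describes likeness only. For Grin3a the nearest genes were Rab33b (0.949) and Tmem231 (0.948). For Grik1 they were Arxes1 (0.985) and Lasp1 (0.982). For Grik2 they were Sptan1 (0.920) and Nos3 (0.911), and for Grik5 Fads3 (0.981) and Osbpl2 (0.979). The nearest genes to Grin1 were Cplx2 (0.973), which encodes a complexin of synaptic vesicle fusion, and Trp53i11 (0.952). For Grin2a they were Cep110 (0.928) and Col11a1 (0.923), for Grin2b Ctif (0.952) and Cd3eap (0.942), and for Grin2d Gm5087 (0.970) and 2410131K14Rik (0.967).

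**Figure D4:**
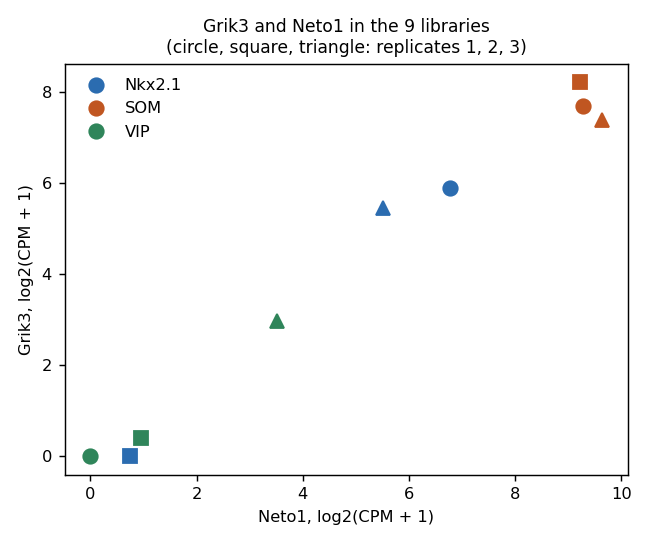
Grik3 (vertical axis) against Neto1 (horizontal axis), both as log2(CPM + 1), 1 point per library in blue for Nkx2.1, orange for SOM and green for VIP. The 3 SOM libraries are at the upper right, Nkx2.1 replicates 1 and 3 below them, and Nkx2.1 replicate 2 with VIP replicates 1 and 2 at the lower left (Pearson r = 0.990, n = 9).

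Genes that anchor, move or serve these receptors were read in lists. Of 24 postsynaptic scaffold and signalling genes 23 were in the tables and tested, and 0 were called by edgeR in any comparison. At an unadjusted p under 0.05 it was 0 higher and 1 lower in Nkx2.1 than in SOM, 3 higher and 3 lower in Nkx2.1 than in VIP and 3 higher and 0 lower in SOM than in VIP, beside 11.3%, 15.2% and 6.99% of all genes in either direction. The list medians were log2 0.14, 0.16 and -0.0051, beside -0.0075, 0.0028 and -0.0037 for all genes tested. DESeq2 called 0 of them in Nkx2.1 against SOM, 3 higher and 2 lower in Nkx2.1 against VIP (4.37% and 8.62% of all genes) and 2 higher and 0 lower in SOM against VIP (3.11% and 1.63%). The anchoring protein gene Akap5 was among its calls, at 425 CPM in Nkx2.1 and 265 CPM in SOM libraries against 21.9 CPM in VIP libraries on average (edgeR adjusted p = 0.123 and 0.341). The scaffold gene Dlgap2 was another, at 869 CPM in Nkx2.1 against 59.7 CPM in VIP libraries (edgeR adjusted p = 0.141). These genes were chosen after their values were seen, and so were the DESeq2 calls named below. Camk2b, a subunit of the calcium/calmodulin-dependent kinase, averaged 104 ± 60.3 CPM in Nkx2.1, 324 ± 91.0 CPM in SOM and 411 ± 169.8 CPM in VIP libraries (edgeR adjusted p = 0.362 for Nkx2.1 against SOM and 0.198 for Nkx2.1 against VIP, where DESeq2 gave an adjusted p of 0.0407). Its partner Camk2a had 30.1 ± 30.4, 15.1 ± 17.3 and 26.9 ± 21.9 CPM. The scaffold genes Dlg2 and Dlg4, which bind GluN2 tails, had 454 ± 226, 649 ± 132 and 386 ± 276 CPM and 39.5 ± 50.6, 74.3 ± 36.5 and 64.3 ± 28.5 CPM, with overlap between all lines.

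Of 9 trafficking adaptor genes 7 were tested, with 0 called by edgeR in any comparison and medians of log2 0.016, -0.44 and 0.11. DESeq2 called Lin7b lower in Nkx2.1 against SOM (1 of 7, beside 7.17% of all genes), Lin7a higher and Lin7b lower in Nkx2.1 against VIP (beside 4.37% and 8.62%) and 0 in SOM against VIP. At an unadjusted edgeR p under 0.05 it was 1, 3 and 1 of 7, beside 11.3%, 15.2% and 6.99% of all genes. Cask, an adaptor gene, was at 0 reads in all libraries, as were all 20 of its nearest same-strand neighbours. Of 8 co-agonist and glutamate transporter genes all were tested, with 0 called by edgeR, medians of log2 0.50, 0.34 and -0.09, and 1, 2 and 2 genes at an unadjusted p under 0.05, beside the same 11.3%, 15.2% and 6.99%. DESeq2 called 0 of them in Nkx2.1 against SOM, Slc6a9 higher and Slc1a5 lower in Nkx2.1 against VIP (beside 4.37% and 8.62% of all genes) and Slc1a5 lower in SOM against VIP (beside 1.63%). Slc1a2 and Slc1a3 of this list are also astrocyte markers.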

How the data were processed

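The authors deposited raw read counts by gene symbol in a table for each library, with 5 summary entries that name no gene. These entries held 83.6% to 85.2% of each table and were left out of library sizes and tests. Per the submitters' processing notes TopHat2 2.0.9, DESeq2 and mm10 are named, without roles. No source used here gives the counting program, strand setting or annotation. Counts were tested in R 4.3.3 with edgeR 4.0.16 (quasi-likelihood test): all 9 libraries in 1 fit, group as the only term, TMM normalization, filterByExpr with a minimum count of 10, and Benjamini-Hochberg adjustment over 10728 genes. It left 6 residual degrees of freedom, with a biological coefficient of variation of 1.40. SE was |log2 value| divided by the root of F. DESeq2 1.42.0 was run as an alternative. The script was tested on simulated data of smaller spread than the real counts. Exon lengths and coordinates are from GENCODE M21 (GRCm38). The members and lists were chosen with earlier results of these data known. Named were all members, the remaining family genes, Neto1, Neto2, Dlg2, Dlg4, Camk2a, Camk2b, list genes called by DESeq2, label checks and for each member the 2 genes most correlated with it. The labels do not tie libraries to separate animals: p-values then measure only how these samples vary, perhaps technically. Other normalizations, no filter, fits of 2 lines, a replicate block and leaving out each library were tried.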

Additional observations from a re-analysis of the deposited data

How the results depend on the processing

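Under every alternative run with edgeR, the number of subunit genes called stayed 0 higher and 0 lower in each comparison. These alternatives were DESeq2 size factors, library sizes only, no filter, only the lines compared, the replicate block and leaving out each library. DESeq2 called 2 lower for Nkx2.1 against SOM, 1 higher and 1 lower for Nkx2.1 against VIP, and 2 higher for SOM against VIP. Of 405 refitted log2 values, 10 turned direction, none of them under another scaling. For Nkx2.1 against SOM these were Grin1 without SOM replicate 1 (0.26), Grin2a without SOM replicate 3 (0.34) and Grik2 without Nkx2.1 replicates 2 and 3 and SOM replicate 3 (0.10, 0.18 and 0.50; leave-one-out range -1.16 to 0.50). For SOM against VIP these were Grin2b without SOM replicate 1 and VIP replicates 1 and 2 (-0.17, -0.0017 and -0.14; main value 0.11), Grik5 without VIP replicate 2 (0.033) and Grin2d with the replicate block (0.031). The cause was not tested. The leave-one-out ranges were -0.99 to 0.26 for Grin1, -3.53 to 0.34 for Grin2a, -0.17 to 0.58 for Grin2b and -0.84 to 0.03 for Grik5. Deviations of same-numbered libraries from their line means correlated at -0.0412 to 0.0671, beside -0.0708 to 0.0623 for libraries of unlike number. The labels do not say what the numbers mark, and values this small between libraries of wide spread cannot decide whether they pair the samples. The replicate block moved the calls over all genes to 3 higher and 1 lower, 8 and 3, and 3 and 1 in the order of comparisons, from 7 and 3, 19 and 14, and 6 and 2. Without the filter SOM against VIP had 14 higher and 7 lower, and with only the lines compared in the fit the calls were 4 and 1, 10 and 10, and 14 and 18. Leaving out 1 library gave 0 to 8 higher and 0 to 29 lower for Nkx2.1 against SOM, 9 to 18 and 3 to 36 for Nkx2.1 against VIP, and 3 to 9 and 0 to 8 for SOM against VIP, over all genes. DESeq2 called 200 and 745, 463 and 914, and 330 and 173, and library sizes only shifted the median of all genes by log2 -0.17 and -0.19 in Nkx2.1 against SOM and VIP. These medians were -0.50 and -0.32 with the replicate block and -0.26 and -0.25 without Nkx2.1 replicate 1. Without division by length the Grik1 share averaged 39.6% in SOM and 53.3% in VIP libraries and the Grik2 share 43.8% and 46.3%. With transcripts matched to RefSeq, a choice made after seeing the data, the Grin2b share averaged 82.6% in Nkx2.1 and 57.4% in SOM libraries and the Grik1 share 59.7% in SOM libraries. The order per kilobase at these lengths was also added after seeing the data.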
